A study of Drosophila melanogaster with 16 samples.

Results

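In whole Drosophila melanogaster, 233 of 2303 transcripts counted on the dm6 genome took a larger share of the small RNA in old flies than in young flies in every pair of matched libraries. They were chosen by a rule that used the measured values. A transcript's percent was 100 times its count over the sum of its library's column, and a member needed a mean of at least 20 counts over the 16 libraries. Its percent had to be higher at 31 days than at 5 or 6 days in all 8 pairs of the same genotype, sex and replicate, and the mean percents of the 8 female and the 8 male libraries had to differ less than 4-fold. Every value below that compares the ages is therefore a description of how the members were chosen and carries no test. The limit on sex also shaped the values that compare females with males, whereas the comparison of genotypes was not used.

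Wildtype flies were wDah, a line that carries the white mutation in the outbred Dahomey background. dFOXO-null flies were wDah with a deletion that makes foxo a null allele, a single allele made by imprecise excision of a P element and crossed back to wDah, so that both genotypes share that background. Mated females and males of each genotype were kept together at 25 °C and were collected at 5 days (replicate 1) or 6 days (replicate 2) as young flies and at 31 days as old flies. Young and old flies of one genotype and replicate were brothers and sisters. Each library came from the RNA of 40 whole flies, with 2 replicates for each of the 8 conditions of genotype, sex and age. The foxo transcript is not among the rows used here, so the deletion was not checked in these counts. In whole flies, less of a tissue and less RNA per cell cannot be told apart.

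The libraries held RNA of 19 to 35 nt cut from a gel, and reads over 25 nt were removed before mapping, so a count on a tRNA or an rRNA is a short piece of that RNA and not the whole molecule. tRNAs carry amino acids to the ribosome, and 5S rRNA is one of the short RNAs of the large ribosomal subunit. Both are made by RNA polymerase III, as are the 7SL RNA of the signal recognition particle, the 7SK RNA that holds the elongation factor P-TEFb inactive, and the RNA of RNase MRP, an enzyme that cuts precursor rRNA. Fragments of tRNAs and rRNAs are found in the small RNA of many animals beside the miRNAs and siRNAs that Argonaute proteins carry. Mature tRNAs and snRNAs are also present in many near-identical gene copies, and each alignment of a read that fits several copies was reported. A read from 5S rRNA was therefore counted at each copy that it matched, and the members are not independent of each other.

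Total counts ran from 394784 to 6166465 per library. Replicate 2 was shallower (394784 to 2562809 counts) than replicate 1 (1846901 to 6166465 counts), and replicate 2 of the old dFOXO-null males was the shallowest. Intervals were not computed for single counts, since one read can add to many rows.

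Of 1030 transcripts averaging 20 counts or more, 240 were higher at 31 days in all 8 pairs (23.3% of those with that mean) and 66 were lower in all 8 (6.41%). The other 7 of the 240 were past the limit on sex. The classes were unequally represented among the members. All 96 annotated 5S rRNA genes were members, of 98 transcripts annotated as rRNA, as were 107 of 228 tRNAs and 11 of 24 snRNAs. Only 3 of 58 snoRNAs, 3 of 71 other noncoding RNAs, 7 of 72 pseudogenes and 6 of 384 protein-coding transcripts met the rule. None of the 93 miRNA hairpins did, and 21 of them were lower at 31 days in all 8 pairs. In a table with 1 row per family of copies, a reduction chosen after seeing the data, 14 of the 93 hairpins were lower in all 8 pairs and 2 met the rule.

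**Figure D1:**
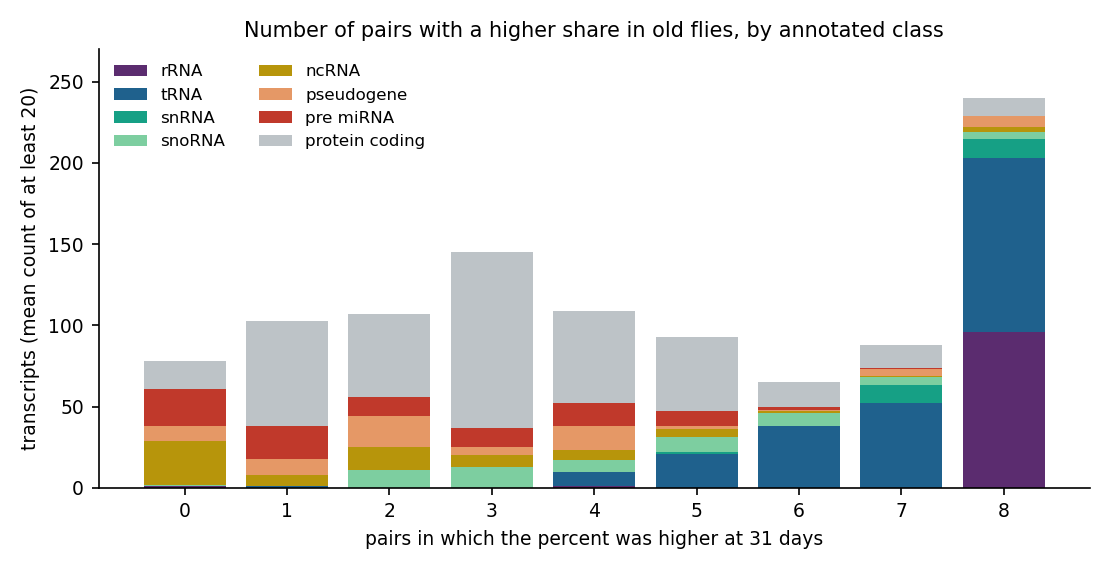
Each bar counts the transcripts with a mean of at least 20 counts (y axis) by the number of the 8 pairs in which their percent was higher at 31 days (x axis), with colours for the annotated class. The bar at 8 pairs holds 240 transcripts, 96 of them 5S rRNA and 107 tRNA, whereas the miRNA hairpins lie mostly in the bars at 0 to 5 pairs.

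The members fell into 39 families of like RNAs: 20 tRNA anticodon groups, 5S rRNA, 7SL RNA, the U1, U2 and U5 snRNAs, and 14 single rows. Among the 233 members there were 149 distinct rows of counts. The 5S rRNA family alone filled 100 rows (96 genes and 4 annotated pseudogenes) with 23 distinct sets of counts, the largest shared by 44 copies in all 16 libraries. The RNA polymerase III products named above (5S, tRNA, 7SL, 7SK and RNase MRP) made up 211 of the members (90.6%). Among the 797 transcripts of the same minimum count that were not members they were 121 (15.2%). By family they were 20 tRNA anticodon groups, 5S, 7SL, 7SK and RNase MRP, of the 39 families. The members were short, with 219 of 233 annotated at no more than 200 bases (94.0%) against 287 of 797 (36.0%). Both contrasts count each copy as a row, 100 of them 5S, although copies share reads. On chromosome arm 2R lay 134 members, 100 of them in the 5S array between positions 19729562 and 19766278 of dm6. Without the 5S rows, 34 of the 133 members left lay on 2R (25.6%), against 152 of the 797 others (19.1%). The members also had more counts, with a median mean count of 521 against 65.3 for the others. That median takes each copy as a member, and a read that fits several copies adds to each of their rows.

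Together the members held 4.81% to 21% of the counts in young libraries (median 8.77%) and 13.4% to 36.1% in old libraries (median 33.2%). In wildtype females the summed share was 5.76% (young) and 13.4% (old) in replicate 1, and 12.1% and 34.3% in replicate 2. Wildtype males had 5.75% and 36.1%, then 13.2% and 32.1%, and dFOXO-null females had 4.81% and 27.7%, then 10.9% and 35.0%. In dFOXO-null males the young and old shares were 6.67% and 19.6% for replicate 1, against 21% and 35.6% for replicate 2, so that the young library of replicate 2 lay above the old library of replicate 1. In the other 3 combinations of genotype and sex, both old libraries lay above both young libraries. The ratio of old to young had a median of 2.88 over the 8 pairs and ran from 1.69 in replicate 2 of the dFOXO-null males to 6.28 in replicate 1 of the wildtype males.

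The replicates differed by level. In young flies the summed share was 4.81% to 6.67% in the 4 libraries of replicate 1, collected at 5 days, and 10.9% to 21% in the 4 libraries of replicate 2, collected at 6 days. These ranges did not overlap, and replicate, day of age and depth cannot be told apart here. In old flies the ranges were 13.4% to 36.1% for replicate 1 and 32.1% to 35.6% for replicate 2.

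Most of this share was 5S rRNA, which held 2.93% to 18.1% of the counts in young libraries and 9.84% to 31.3% in old libraries. Since a 5S read can count at each of many copies, the sum was also taken in the table with 1 row per family, which keeps the most abundant copy. The members' families then held 1.28% to 3.23% in young and 3.27% to 7.64% in old libraries, and the median ratio over the 8 pairs was 2.68. No young library was above any old library in this count. In the full table, the share of all tRNA rows was also higher in old flies in 8 of 8 pairs (median ratio 1.59). The share of miRNA hairpins there was lower in 8 of 8 (median ratio 0.616, from 0.288 to 0.992). Both are shares of the full column sums, in which a 5S read can count at many copies. For the hairpins, 8 of 8 does not hold with 1 row per family. In replicate 1 of the wildtype females their share of the full sum was 49.0% (young) and 48.6% (old). With 1 row per family that sum shrank from 4618012 to 4135745 counts (young) and from 4000996 to 3080626 (old). The 93 hairpin rows at the minimum count stayed in, so their share there was higher in old flies. The same held in replicate 1 of the dFOXO-null females. For all tRNA rows this was not tested.

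**Figure D2:**
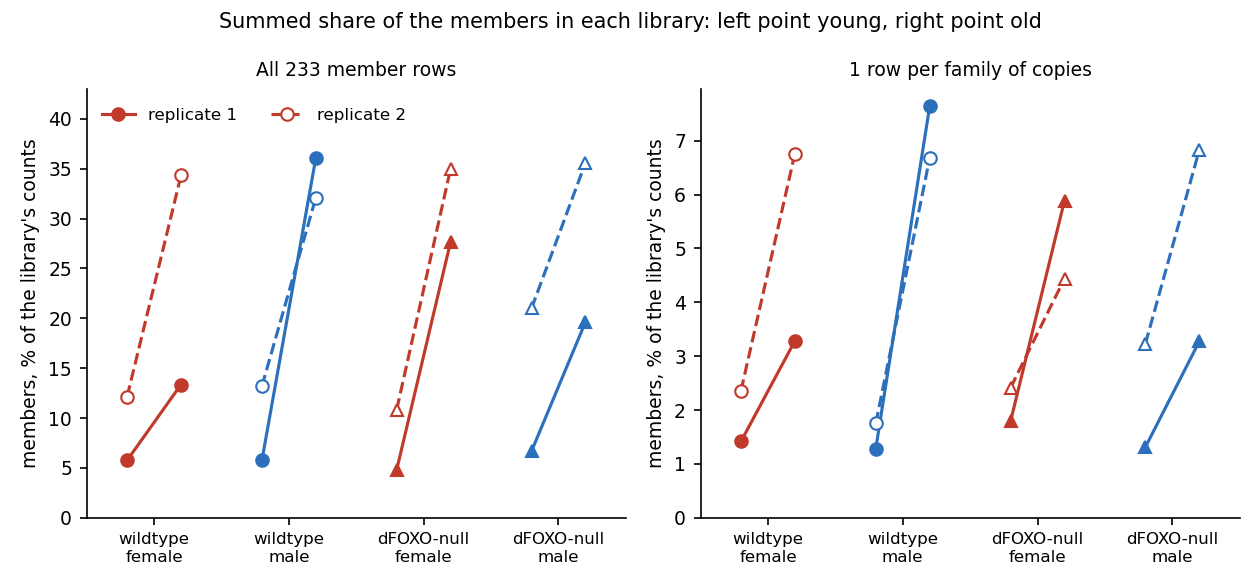
Each line joins the young (left) and old (right) library of a pair, in percent of the library's counts (y axis), for the 4 combinations of genotype and sex; circles are wildtype, triangles dFOXO-null, filled symbols replicate 1 and open symbols replicate 2. With all 233 rows the old libraries lie between 13.4% and 36.1%, and with 1 row per family between 3.27% and 7.64%, and each line rises.

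The percent is a share of the counts in the dm6 table, and the direction changed with the denominator. Synthetic spike-in RNAs were added to each sample after the gel, and their reads per 1000000 dm6 counts ran from 27.3 to 469 in young libraries and from 54.5 to 2090 in old libraries. This quantity was higher in old flies in 8 of 8 pairs, with a median ratio of 5.08. Whether equal amounts were added to each sample is not given in the sources used here. The spike-ins had only 91 to 1970 reads per library. Replicates of a condition differed, from 85.4 and 155 per 1000000 in young dFOXO-null males to 54.5 and 598 in old dFOXO-null females. A fall per spike-in read is therefore not a measured fall per fly. Per spike-in read, the summed members were lower in old flies in 6 of the 8 pairs, with a median ratio of 0.530. The exceptions were replicate 1 of the wildtype males (1.87) and replicate 1 of the dFOXO-null females (2.87). No member was higher per spike-in read in all 8 pairs, nor was any other transcript of the same minimum count (0%). In all 8 pairs 26 members were lower (11.2%), against 52.3% of the 1030 transcripts. The median over members of the median ratio was 0.547 on this scale, and 0.228 over all 1030 transcripts of the same minimum count. The spike-ins scale every transcript of a pair alike and the members were chosen for high ratios, so their place above other transcripts on this scale was set by the rule. The members thus had higher shares of the dm6 counts in all pairs, but in most pairs their sum was not higher per spike-in read.

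**Figure D3:**
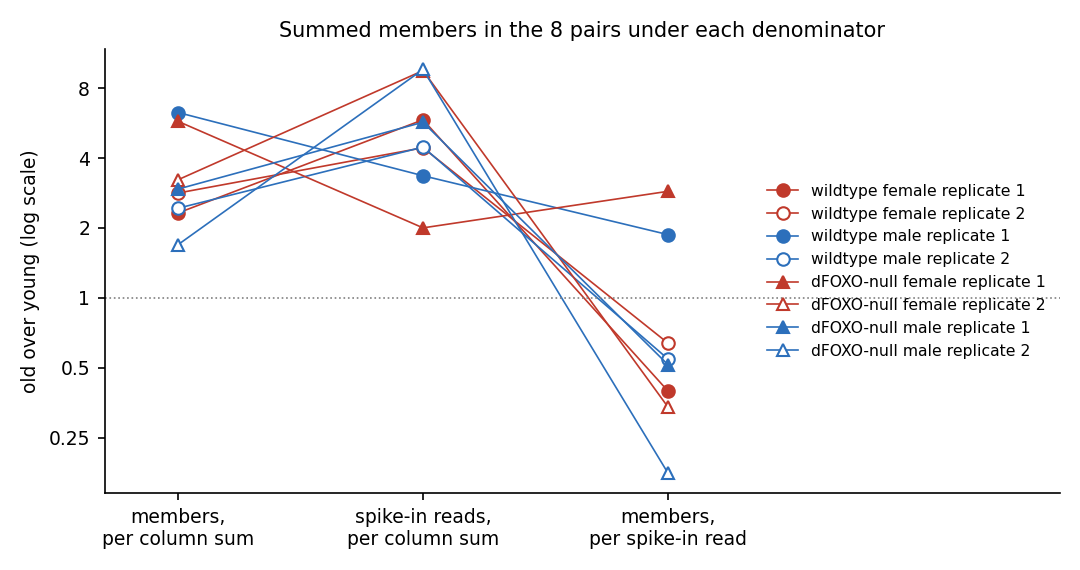
Ratio of old to young on a log scale (y axis) in each of the 8 pairs, for the summed members per column sum, the spike-in reads per column sum and the summed members per spike-in read (x axis). All 8 pairs lie above 1 in the left and middle columns, from 1.69 and 2.0 upward, and 6 of 8 lie below 1 in the right column.

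Over the 233 members the median ratio of old to young was 3.13, with a range of 1.32 to 5.39 from member to member, against a median of 1.12 over the 1030 transcripts. Of these members 100 were 5S rows, and over the 39 families the median was 2.21. The median ratio was at least 2 in 191 members and in 23 of the 39 families, and 15 members from 4 families were at least 2-fold higher in every pair. The pairs differed in size. The median over members was 5.59 in replicate 1 of the wildtype males and 4.42 in replicate 1 of the dFOXO-null females, and 1.77 in replicate 2 of the dFOXO-null males. Taken over the 39 families, the medians were closer to each other, from 1.71 to 2.82. Only 8 members had all 8 old libraries above all 8 young libraries (0.777% of the 1030 transcripts): 6 copies of tRNA:Gln-CTG, tRNA:Gln-TTG-1-2 and CG15865. Within a genotype and sex, 13 of the 39 families had both old libraries above both young libraries in all 4 combinations, against 2.52% of all 595 families with a copy at the minimum count (15 families), and the rule used these values.

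**Figure D4:**
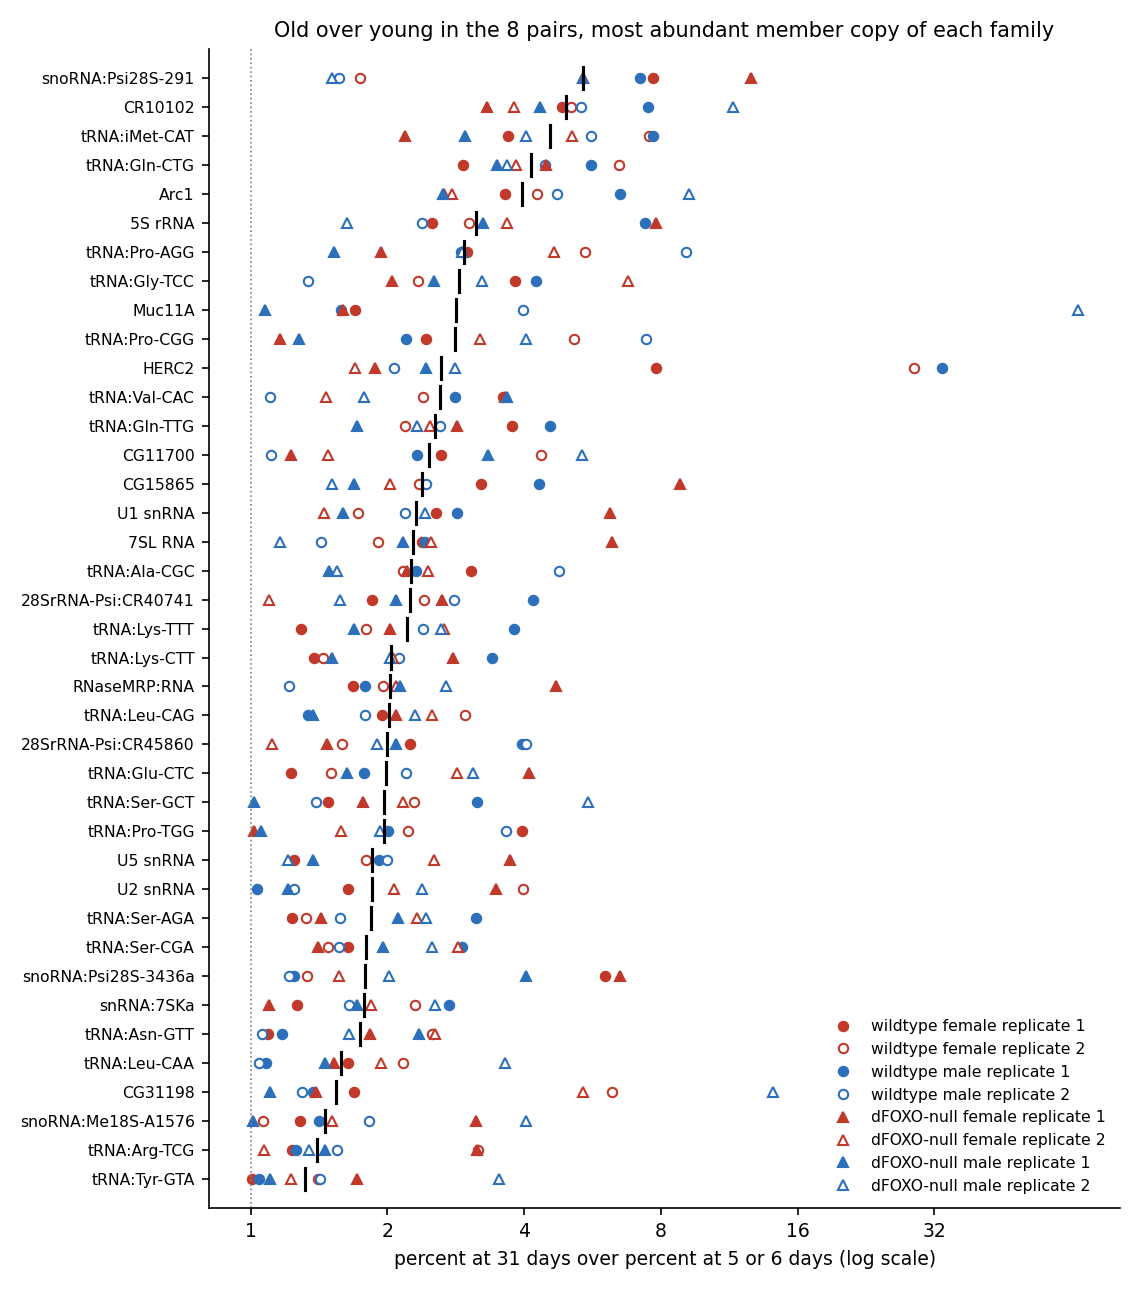
Percent at 31 days over percent at 5 or 6 days on a log scale (x axis) for the most abundant member copy of each of the 39 families (y axis), with 1 symbol for each of the 8 pairs and a black bar at their median. Medians run from 1.32 for tRNA:Tyr-GTA to 5.39 for snoRNA:Psi28S-291, and the 2 pairs of Muc11A whose young library had no count are not drawn.

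The 5S rRNA genes lie on the minus strand of 2R. A copy with the highest count, 5SrRNA:CR33446 (2R:19731768-19731902), held 0.0421% and 0.0991% of the counts in young wildtype females and 0.105% and 0.300% in old ones. In wildtype males it went from 0.0470% and 0.121% to 0.348% and 0.288%. In dFOXO-null females it went from 0.0320% and 0.0888% to 0.250% and 0.326%, and in dFOXO-null males from 0.0563% and 0.200% to 0.183% and 0.326%. Old and young libraries were apart in each combination of genotype and sex except the dFOXO-null males. The median ratio was 3.14 and lay between 2.93 and 3.53 for all 100 rows of the 5S array. The other 2 transcripts annotated as rRNA were pre-rRNA:CR45856, which was lower in old flies in all 8 pairs, and 2SrRNA:CR45864, and neither was a member.

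Pieces of the large rRNA were represented by 2 of the annotated 28S pseudogenes on X. 28SrRNA-Psi:CR40741 (X:23239718-23240975) was the most abundant member, with a mean of 1.63% of the counts, 0.684% to 1.603% in young libraries and 1.48% to 2.91% in old ones. Its median ratio was 2.25, with the lowest pair ratio at 1.09. 28SrRNA-Psi:CR45860 had a mean of 0.430% and a median ratio of 1.99. The summed 18S and 28S pseudogene rows as a whole were higher at 31 days in only 4 of 8 pairs (median ratio 0.922).

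Signal recognition particle RNA is encoded by a pair of genes with identical counts, 7SLRNA:CR42652 (3R:6820131-6820429) and 7SLRNA:CR32864 (3R:6822500-6822798), on opposite strands. Each held 0.0437% and 0.119% in young and 0.104% and 0.226% in old wildtype females, and 0.0781% and 0.103% in young and 0.189% and 0.146% in old wildtype males. In dFOXO-null flies the values were 0.0334% and 0.0931% in young and 0.208% and 0.232% in old females, and 0.0638% and 0.160% in young and 0.138% and 0.185% in old males. The median ratio was 2.27, and the ages overlapped in wildtype females and in dFOXO-null males. RNaseMRP:RNA had 3 to 55 counts per library and a median ratio of 2.02, and snRNA:7SKa had 19 to 154 counts and a median ratio of 1.77. With these, all 4 annotated transcripts of 7SL, 7SK and RNase MRP in the table were members.

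Among tRNAs the members were sorted by anticodon. The table held 45 anticodon groups, 35 of them with a copy at a mean of at least 20 counts. In 12 groups all such copies were members, in 8 groups some were, and in 15 groups none was. The complete groups were Lys-CTT (13 copies), Gln-CTG (8), Ser-AGA (8), Lys-TTT (6), Gly-TCC (6), the initiator iMet-CAT (6), Pro-AGG (5), Pro-TGG (5), Pro-CGG (4), Gln-TTG (4), Ser-CGA (4) and Ala-CGC (3). Each of the proline anticodons and both of the lysine and glutamine anticodons was thus complete. Groups with no member included Ala-AGC, Asp-GTC and Gly-GCC, of 12, 14 and 14 copies. Their most abundant copies still had median ratios of 1.58, 1.55 and 1.89, but were higher in old flies in only 6, 7 and 5 of the 8 pairs. The median ratio of the most abundant copy was 2.01 over the 20 groups with a member and 1.55 over the 15 without one. Since near-identical copies share reads, a complete group is close to a single measurement.

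The tRNA members summed to 0.299% to 0.994% of the counts in young libraries and to 0.633% to 1.84% in old ones, with a median ratio of 2.44. tRNA:Lys-CTT-1-5, the most abundant copy, ran from 0.00859% to 0.0297% in young and from 0.0178% to 0.0427% in old libraries, with a median ratio of 2.04. tRNA:Lys-TTT-2-2 had a median ratio of 2.21. Of the glutamine tRNAs, tRNA:Gln-CTG-3-1 (2L:2010869-2010940) held 0.00153% to 0.00404% in young libraries and 0.00531% to 0.0262% in old ones. Those ranges did not overlap, the median ratio was 4.14, and the lowest ratio of any pair was 2.94. The initiator tRNA, which carries the methionine that starts each protein, was represented by tRNA:iMet-CAT-1-1 (2R:19725620-19725691). It ran from 0.000312% to 0.00151% in young libraries and from 0.000787% to 0.00842% in old ones, with a median ratio of 4.56, and its gene lies beside the 5S array. The serine groups had lower median ratios, 1.84 for tRNA:Ser-AGA-3-2 and 1.80 for tRNA:Ser-CGA-1-4. Of the tRNA members, 55 lie within or overlap another annotated gene on either strand.

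The spliceosomal members were 5 U1, 3 U2 and 2 U5 snRNA copies. U1 pairs with the 5′ splice site, U2 with the branch point, and U5 holds the exons for joining. snRNA:U1:95Ca ran from 0.00338% to 0.0175% in young and from 0.00807% to 0.0301% in old libraries, with a median ratio of 2.31. snRNA:U2:34ABb (2L:13215839-13216030) had a median ratio of 1.85 and snRNA:U5:34A also of 1.85. The U2 family shows how thin the edge of the rule was. Its 5 copies had median ratios of 1.83 to 1.85, and the 2 copies left out, snRNA:U2:38ABa and snRNA:U2:14B, missed 1 pair each, with ratios there of 0.996 and 0.991.

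The 3 snoRNA members guide the modification of rRNA. snoRNA:Me18S-A1576 had a median ratio of 1.46, snoRNA:Psi28S-3436a of 1.79 and snoRNA:Psi28S-291 of 5.39, the highest of any member. The last of these rested on few reads, 2 to 148 per library, and in the dFOXO-null males the counts were 3 (young) and 7 (old) for replicate 1, and 4 and 3 for replicate 2, where the old library had the lower total. All 3 lie within a host gene on the same strand, RpL17 for snoRNA:Psi28S-3436a, RpL3 for snoRNA:Psi28S-291 and the host transcript Uhg2 for snoRNA:Me18S-A1576. None of the 4 ribosomal protein transcripts averaging 20 counts or more was a member.

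Arc1 encodes a protein related to retroviral Gag that forms capsids and carries its own mRNA between cells in flies. It was the most abundant protein-coding member (2R:14357927-14360297, minus strand). Its percent was 0.00117% and 0.00417% in young and 0.00425% and 0.0178% in old wildtype females, and 0.00179% and 0.00288% in young and 0.0117% and 0.0136% in old wildtype males. In dFOXO-null flies it was 0.00111% and 0.00156% in young and 0.00295% and 0.00432% in old females, and 0.00143% and 0.00151% in young and 0.00379% and 0.0139% in old males. The median ratio was 3.95, no pair was under 2.65, and the ages were apart in each combination of genotype and sex. CR10102, annotated as a pseudogene, lies next to Arc1 on the same strand (2R:14360433-14361780). It had a median ratio of 4.95, with no pair under 3.31, from 7 to 454 counts per library. Whether reads from these neighbours can be told apart was not tested.

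The other 5 protein-coding members had few counts. CG11700 had 3 to 102 counts per library and a median ratio of 2.47. Muc11A, which encodes a mucin, had no count in the young females of replicate 2 of either genotype and 154 and 57 counts in the old libraries of those pairs. Its median ratio over the 8 pairs was 2.83, in which those 2 pairs have no finite ratio, and its lowest was 1.07. HERC2, which encodes a large ubiquitin ligase, had a median ratio of 2.62 from 1 to 139 counts. CG31198 and CG15865 had median ratios of 1.54 and 2.39. Muc11A overlaps Ten-a and a noncoding RNA on the same strand. On the other strand, CG15865 overlaps rudimentary (r) and HERC2 overlaps a copy of the transposable element Rt1b. The strand setting of the counting is not given in the sources used here, so reads of overlapping genes cannot be told apart.

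HERC2 (mean count 20.4) and tRNA:Val-CAC-2-1 (21) were the members nearest to the minimum count, and blw (19.7) and tRNA:Trp-CCA-2-1 (19.4) were higher in all 8 pairs just below it. Nearest to the limit on sex were snoRNA:Psi28S-291 (3.25-fold) and snRNA:U5:34A (2.98-fold) inside, and snRNA:LU (4.73-fold) and RpLP2 (5.38-fold) outside. The lowest pair ratios that still passed were 1.008 for tRNA:Tyr-GTA-1-7 and 1.009 for snoRNA:Me18S-A1576.

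Between the sexes the members had no common direction. The mean percent was higher in females for 76 of 233 members and for 21 of 39 families, and the ratio of female to male ran from 0.362 to 3.25 with a median of 0.858 over members. At both ages in both genotypes, 6 families were higher in females (15.4% of the 39, against 55.1% of all 595). They were tRNA:Lys-TTT, U5 snRNA, the 3 snoRNAs and RNase MRP RNA, with ratios of female to male between 1.34 and 3.25. In 11 families the females were lower in all 4 combinations of age and genotype (28.2%, against 23.7% of all 595). These were tRNA:Pro-TGG, Pro-AGG, Pro-CGG, Ser-AGA, Ser-CGA, Ala-CGC, iMet-CAT, Gly-TCC and Leu-CAA, CR10102 and HERC2. Their ratios of female to male ran from 0.366 for tRNA:Gly-TCC to 0.634 for tRNA:Leu-CAA. The 5S family had a ratio of 0.793 and 7SL RNA of 0.997. The limit on sex took part in these shares. They are values from 2 libraries for each sex within an age and genotype and have no test.

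Loss of dFOXO was tested on the whole table with edgeR's quasi-likelihood test, fitting the 16 libraries together by condition. Averaged over the 4 conditions of sex and age, 13 of the 233 members had an adjusted p under 0.05 (Benjamini-Hochberg over 1566 rows), against 9.83% of all rows tested (154 of 1566, 20 higher and 134 lower in dFOXO-null flies). All 13 were lower in dFOXO-null flies, and they came from 3 families, U2 snRNA, tRNA:Pro-AGG and tRNA:Pro-TGG. The share of members was 5.58%, in which the 100 rows of 5S rRNA stand for nearly a single measurement. With 1 row per family, 2 of the 39 families were called (5.13%), against 5.02% of 1075 rows, and 11 of 39 had an unadjusted p under 0.05 (28.2%), against 17.4%. At an unadjusted p under 0.05 there were 48 of 233 members in the full table, all lower, against 342 of 1566 rows (21.8%). DESeq2 called 16 members (6.87%), all lower, against 7.47% of all rows. They were 8 copies of tRNA:Glu-CTC, which the edgeR fit did not call, 5 of tRNA:Pro-AGG and the 3 U2 copies. No copy of tRNA:Pro-TGG was called by DESeq2. The median log2 difference was -0.05 over members and -0.27 over all rows tested, and with 1 row per family the order turned, at -0.52 over the 39 families and -0.24 over all rows. The members' median also changed sign with the scaling, to 0.26 with TMM factors, 0.31 with DESeq2 and 0.42 with spike-in reads as the library size, where the medians of all rows were -0.01, 0.06 and 0.09. No common direction of the members is therefore given.

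The U2 copies had the lowest adjusted p-values among the members. In wildtype flies snRNA:U2:34ABb held 0.0192% and 0.0188% (young females), 0.0313% and 0.0749% (old females), 0.0268% and 0.0305% in young males and 0.0276% and 0.0379% in old males. In dFOXO-null flies young females had 0.00704% and 0.0103%, old females 0.0244% and 0.0213%, while young males had 0.00854% and 0.00553% and old males 0.0103% and 0.0132%. The genotypes were apart in each of the 4 conditions, although old dFOXO-null females lay above young wildtype females. The log2 difference was -1.46 (SE 0.28, n = 8 libraries per genotype, adjusted p = 0.00411 by edgeR), and it was -1.42 (SE 0.28, adjusted p = 0.00422) for snRNA:U2:34ABa and -1.36 (SE 0.28, adjusted p = 0.00597) for snRNA:U2:38ABb. The 3 copies share reads, and in a table with 1 row per family U2 snRNA had a log2 difference of -1.51 (SE 0.31, edgeR adjusted p = 0.00413). The 3 U2 copies remained called when any of the 16 libraries was left out.

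tRNA:Pro-AGG-1-2 (2L:14598859-14598930) had a log2 difference of -1.44 (SE 0.38, edgeR adjusted p = 0.0334), and tRNA:Pro-AGG-1-6 of -1.43 (SE 0.38, adjusted p = 0.0334). It held 0.00243% and 0.00224% in young and 0.00725% and 0.0122% in old wildtype females, and 0.000899% and 0.000702% in young and 0.00174% and 0.00326% in old dFOXO-null females. In males it held 0.00196% and 0.00332% in young and 0.00571% and 0.0301% in old wildtype flies, and 0.00167% and 0.00251% in young and 0.00254% and 0.00735% in old dFOXO-null flies. The genotypes were apart in females at both ages and overlapped in males at both ages. The other called rows, 3 further Pro-AGG copies and 5 Pro-TGG copies, were named after their values were seen, and tRNA:Pro-TGG-1-2 had a log2 difference of -1.23 (SE 0.33, edgeR adjusted p = 0.0334). In that row the genotypes were apart in all 4 conditions, narrowly in young females (lowest wildtype library 0.00815%, highest dFOXO-null library 0.00788%). With 1 row per family the edgeR adjusted p was 0.0573 for tRNA:Pro-AGG and 0.0385 for tRNA:Pro-TGG.

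The count of 13 rested on single libraries and on the scaling. It was 3, the U2 copies alone, without any of 8 libraries, which were both replicates of the young wildtype females and of the young dFOXO-null males, replicate 2 of the young wildtype males, the old wildtype males and the young dFOXO-null females, and replicate 1 of the old dFOXO-null males. It was 8 without replicate 1 of the young wildtype males or without either replicate of the old dFOXO-null females, and 27 without replicate 2 of the old dFOXO-null males. TMM factors moved the median of all rows from -0.27 to -0.01 and changed the split of all calls to 17 higher and 19 lower. No member was then called (2.3% of all rows). An unadjusted p under 0.05 by edgeR was found for 36 of 233 members and for 250 of 1566 rows, which are near the same share. With spike-in reads as the library size no member was called either (0.575% of all rows). None had an unadjusted p under 0.05 there, against 57 of 1566 rows. snRNA:U2:34ABb was lower by a log2 difference of -1.13 with TMM and -0.97 with the spike-ins.

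**Figure D5:**
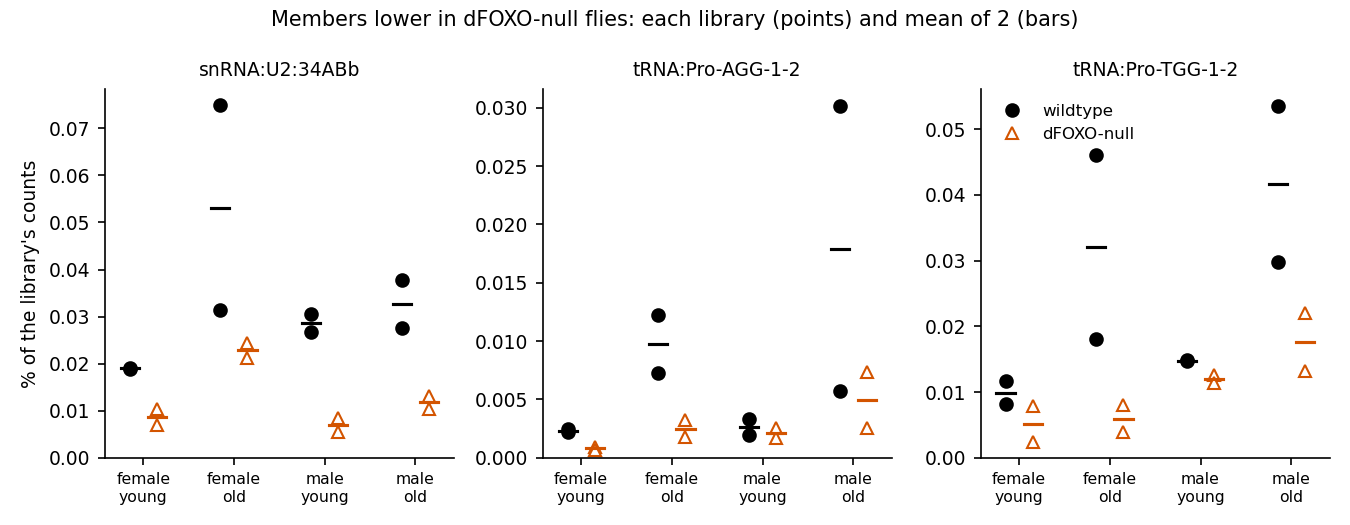
Percent of the library's counts (y axis) for snRNA:U2:34ABb, tRNA:Pro-AGG-1-2 and tRNA:Pro-TGG-1-2 in wildtype (filled circles) and dFOXO-null flies (open triangles) by sex and age (x axis), with 1 point per library and a bar at the mean of 2. The U2 copy and tRNA:Pro-TGG-1-2 are apart between genotypes in all 4 conditions, whereas tRNA:Pro-AGG-1-2 overlaps in males.

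Within a single sex and age no member passed an adjusted p of 0.05 by edgeR without a replicate block. In young males 4 of 233 members had an unadjusted p under 0.05, against 66 of 1566 rows (4.21%), and 0.639% of all rows were called after adjustment. The members under that unadjusted p were 8 of 233 in old males (127 of 1566 rows, 8.11%, with 0% called after adjustment). In young females they were 12 of 233 (207 of 1566 rows, 13.2%, with 0.639% called). In each of these conditions the share was smaller among members than among all rows. Old females had 33 of 233, near the share of all rows (218 of 1566, 13.9%, with 0.511% called). DESeq2 called 3 members in young males (1.53% of all rows), the U2 copies, and 8 in young females (1.85%), all tRNA:Glu-CTC. It called 0 in old males (1.28%) and in old females (2.04%). In young flies the replicate number goes with the day of age, so the edgeR fit was also made with the number as a block. It then called 9 members in young females (2.62% of all rows), all tRNA:Glu-CTC, 5 in old females (3.77%), all tRNA:Pro-TGG, and none in males of either age. Over the mean of the 4 conditions the block raised the count from 13 to 57 members (24.5%, against 16.4% of all rows), all lower in dFOXO-null flies. These came from 13 families, among them U2 snRNA, Arc1, the initiator tRNA and the tRNAs of all 3 proline anticodons. The 4 comparisons within a sex and age have 2 libraries against 2. The difference of the dFOXO effect between females and males was not significant for any member (0.0639% of all rows called, 1 member at an unadjusted p under 0.05 against 7.6% of all rows, none called by DESeq2). The 5S family had a ratio of dFOXO-null to wildtype mean percents of 1.08 and 7SL RNA of 1.10. No row of either family was called. Of the 39 families, 15 had the lower mean in dFOXO-null flies in all 4 conditions of sex and age (38.5%, against 14.6% of all 595), and none had the higher mean in all 4 (9.58% of all 595). Most of the 15 were tRNA groups, and the summed share of all tRNA rows, members or not, was also lower in dFOXO-null flies. Its means in wildtype and dFOXO-null flies were 4.31% and 2.45% in young females and 8.63% and 3.46% in old females. In males they were 5.42% and 3.87% (young) and 9.72% and 6.13% (old).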

How the data were processed

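Small RNA was sequenced by the authors from 16 samples of whole flies. Per the labels and the study's methods, adapters were trimmed (Trim Galore), reads over 25 nt were removed, the rest were mapped to dm6 with Bowtie allowing 1 mismatch and reporting all valid alignments, and featureCounts counted them. The deposited count table holds raw counts per transcript; the deposited percent table gives each count as a percent of its column, and was used only to check the percents computed here. Tool versions are not given in the sources used here. Columns not mapped to a sample numbered 0.

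Transcript names, classes and positions came from the Ensembl BDGP6 annotation (2299 of 2303 IDs matched). Spike-in reads were taken from the authors' count table of miRNAs and transposons. The 1566 rows averaging 5 counts or more were tested with edgeR 4.0.16 on counts (R 4.3.3, library size the column sum, Benjamini-Hochberg), a test checked on simulated data, with DESeq2 1.42.0 as an alternative. Percents used Python 3.11.15 and pandas 2.3.3.

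Other denominators, minimum counts, sex limits and scalings were tried, and each library or pair was left out. A family was represented by the copy with the highest mean count. Named transcripts were the 12 members of highest mean percent (28S pseudogenes and identical 5S copies, of which 1 is printed), the 8 with the largest median ratio, the 3 highest of each class, members called by genotype (at most 5 per comparison) and the 2 on each side of a threshold. The remaining names stand for a family or a group. The members and lists were chosen with earlier results of these data known. The replicates are biological by the study's account.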

Additional observations from a re-analysis of the deposited data

How the results depend on the processing

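The number of members was 0 with spike-in reads as the denominator, 28 with the column sum times the TMM factor and 123 when each pair had to be at least 1.5-fold higher; all of the last 2 sets were among the 233. In a table with 1 row per family of copies, chosen after seeing the data, 66 of 595 rows passed, among them 38 of the 39 families. Under the other settings the number was 168 to 349. The summed ratio of 2.88 was 0.530 against the spike-ins and 1.96 with TMM, and 2.83 to 2.94 when a pair was left out. The count of 13 members lower in dFOXO-null flies (9.83% of all rows called) was 0 with TMM factors (2.3%), 0 with the spike-ins (0.575%), 16 with DESeq2 (7.47%), 34 when rows averaging under 20 counts were left out (16%), 2 of 39 in the table with 1 row per family (5.02%), and 3 to 27 when a library was left out. In young males DESeq2 called 3 members (1.53%) and in young females 8 (1.85%). The cause of these changes was not tested.

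Same-numbered libraries of the genotypes deviated together by r = 0.66, 0.50, 0.60 and 0.04 in the 4 conditions, and the labels tie the number to a day of age in young flies alone. Same-numbered young libraries of different sex also deviated together, by r = 0.49 to 0.61, so this was not limited to libraries of the same sex. A replicate block gave 57 called members for the mean of the 4 conditions (16.4% of all rows), 9 for young females (2.62%) and 5 for old ones (3.77%), and the other comparisons stayed at 0. The depth of 394784 counts in the shallowest library leaves the rarer members on a few reads, and shares cannot give amounts per fly.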

Other observations

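The 4 rows of Hsp70 (Hsp70Ba, Hsp70Bb, Hsp70Bbb and Hsp70Bc), which encode the major heat-inducible chaperone and share near-identical sequence, were higher at 31 days in all 8 pairs but were left out of the members by the limit on sex. Their median ratios of old to young were 1.22 to 1.31 and their mean percents were 12.7 to 13.0 times higher in females. snRNA:LU had a median ratio of 7.08, above that of every member, with a mean percent 4.73 times higher in females, and snoRNA:Psi18S-1820 had a median ratio of 4.33 at 11.9 times.

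In the table with 1 row per family of copies, 28 rows passed the rule beside the families described above. They included the hairpin RNA hpRNA:CR46342 with a median ratio of 1.73 and a mean of 4.67% of that table, mir-317 (1.61) and mir-33 (1.62), tRNA:Ala-AGC (2.12), tRNA:Gly-GCC (2.52) and the actin gene Act57B (4.41). Their values were used by the rule, so none carries a test. Of 119 histone rows with a mean of at least 20 counts none was a member and 10 were lower at 31 days in all 8 pairs. None of the 4 gut markers or the 2 markers of neurons and eye with that mean was a member. The 1 muscle marker with that mean was Act57B, named above. It was not a member in the full table, where its median ratio was 3.27, but it met the rule with 1 row per family. The ovary, testis and accessory gland markers had no row with that mean and could not be tested.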
